A study of Mus musculus with 6 samples.

Results

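The 10 genes described here encode cell-surface proteins by which fibroblasts are commonly recognized and sorted: the PDGF receptors *Pdgfra* and *Pdgfrb*, the glycoproteins *Pdpn* (podoplanin) and *Thy1* (CD90), the progenitor-associated markers *Cd34*, *Ly6a* (SCA-1), *Ly6c1*, *Pi16* and *Dpp4* (CD26), and the tetraspanin *Cd81*. They were chosen by name, with earlier results of these data known, and all 10 are among the 19069 genes listed in the single-cell data. Cells came from colon tumors of 3 FibCtrl mice (Col6a1Cre transgene negative; mice 1, 3 and 4) and 3 FibΔZeb1 mice (Col6a1Cre transgene positive; mice 2, 5 and 6), which all carried the floxed Zeb1 fl/fl allele and had received azoxymethane (AOM) and dextran sulfate sodium (DSS), a carcinogen and a colitis-inducing agent. Cre is driven by the *Col6a1* promoter in these mice, so that *Zeb1* can be lost only in cells in which that promoter has been active. Single EPCAM-, CD45- and CD31-negative cells were sorted into 384-well plates, 1 plate per mouse, so that plate and mouse cannot be told apart. In SORT-seq, the 3′ end of each mRNA is tagged with a molecular barcode (UMI), which lets molecules be counted one by one.

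PDGFRA and PDGFRB are the receptor tyrosine kinases for platelet-derived growth factors, the first found mostly on fibroblasts and the second on fibroblasts and on the mural cells (pericytes) of small vessels. In the gut, subepithelial fibroblasts with high PDGFRA, also called telocytes, lie along the epithelium and make WNT5A and BMPs, while fibroblasts with CD34 and SCA-1 lie deeper and around vessels, where PI16 and DPP4 mark cells described as fibroblast progenitors. PDPN and THY1 are broad stromal markers, and CD81 is a membrane scaffold protein of many cell types that also marks trophocytes, a deep CD34-positive gut fibroblast.

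Of 2304 wells, 1233 had 100 to 6000 genes and under 10% mitochondrial transcripts. After removal of 305 wells with *Ptprc* or *Epcam*, 928 wells remained as cancer-associated fibroblasts (CAFs) in the sense of the study. Marker lists that hold none of the 10 genes were used to gate them into 200 iCAF-gated cells (by a list of 14 genes such as *Clec3b*, *Dpt* and *Il6*), 112 telocyte-gated cells (by 10 genes such as *Wnt5a* and *Bmp7*), 186 other fibroblasts between the gates and 87 pericyte-gated cells (by 10 genes such as *Rgs5* and *Notch3*). A further 208 were neutrophil-gated and 135 met no gate, so that the negative sort held many cells that were not fibroblasts. The first 3 classes, 498 cells, are the fibroblast-gated cells. Among them, the share with a transcript ranged from 5.42% for *Dpp4* to 94.0% for *Ly6a*. A median of 10 of 10 fibroblast markers was detected in iCAF-gated cells, 9 in the other fibroblasts and 9 in telocyte-gated cells. iCAF-gated and other fibroblasts form a gradient, with 91 cells within 0.25 log2 units of the gate between them. Fibroblast-gated cells numbered 156, 17 and 50 in FibCtrl mice 1, 3 and 4 and 155, 106 and 14 in FibΔZeb1 mice 2, 5 and 6, with a median of 12242 transcripts per cell.

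Levels are given in CPM, the transcripts of a gene in the summed cells of a class in a mouse, scaled to a common total for all libraries. Classes with at least 10 cells in a mouse gave 13 such libraries, from mice 1, 2, 4 and 5, and differences between classes were tested in edgeR with the mouse as a block. All values per mouse are shown in the plot of levels by class.

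**Figure D1:**
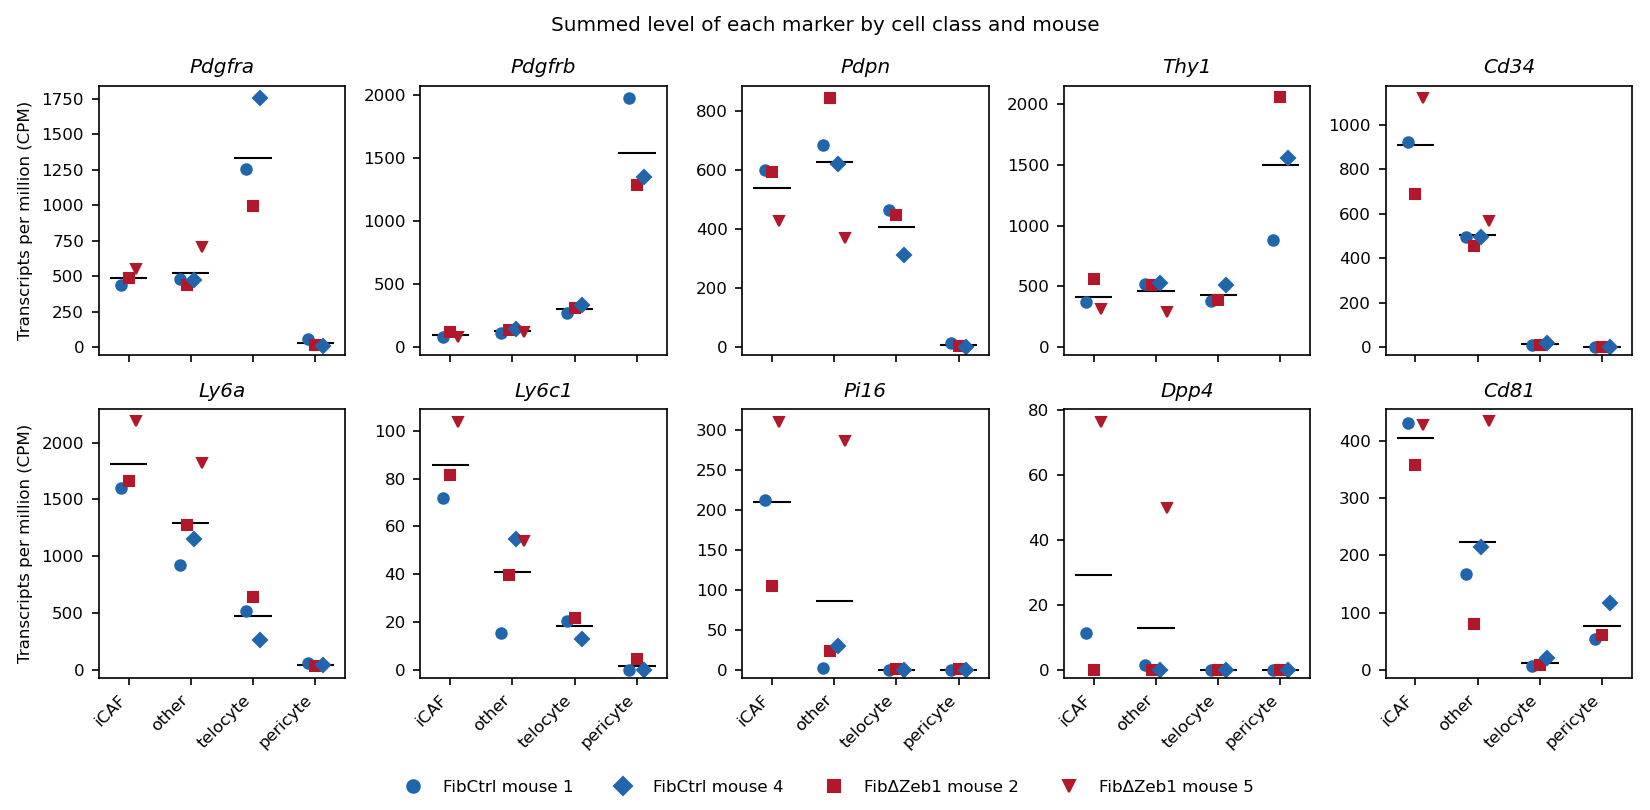
Level of each of the 10 genes (y axis, CPM of summed cells, linear scale that differs between panels) in the iCAF-gated, other fibroblast, telocyte-gated and pericyte-gated cells of each mouse with at least 10 cells of the class. Symbols are mice, colors genotypes and lines class means. *Pdgfra* is highest in telocyte-gated cells (mean 1334 CPM), *Pdgfrb* and *Thy1* in pericyte-gated cells (1538 and 1499 CPM), and *Cd34* falls from 911 CPM in iCAF-gated to 13.0 CPM in telocyte-gated cells.

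*Pdgfra* was the marker that separated all fibroblast classes from pericytes while being highest in telocytes. Its level was 435, 484 and 550 CPM in the iCAF-gated cells of mice 1, 2 and 5, and 483, 435, 475 and 703 CPM in the other fibroblasts of mice 1, 2, 4 and 5. In telocyte-gated cells it reached 1256, 994 and 1753 CPM (mice 1, 2 and 4), and in pericyte-gated cells of the same mice 53.9, 16.9 and 7.31 CPM. Each telocyte library lay above each library of the other classes, and each pericyte library below them, while the iCAF and other fibroblast libraries overlapped. The log2 fold change was -1.32 ± 0.26 (SE) for iCAF-gated against telocyte-gated cells (edgeR adjusted p = 0.00128) and 1.39 ± 0.23 for telocyte-gated cells against other fibroblasts (adjusted p = 0.000611). Fibroblasts exceeded pericytes by 4.90 ± 0.33 (adjusted p = 2.43e-09), where the fibroblast side is the mean of the 3 classes on the log scale. Between iCAF-gated cells and other fibroblasts the difference was 0.07 ± 0.23 (adjusted p = 0.941).

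*Pdgfrb* followed another order, with the highest level in pericytes, the next in telocytes and the lowest in iCAF-gated and other fibroblasts. It measured 79.4, 115 and 79.96 CPM in iCAF-gated cells, 109, 134, 145 and 119 CPM in other fibroblasts, 267, 313 and 336 CPM in telocyte-gated cells and 1979, 1286 and 1350 CPM in pericyte-gated cells. The pericyte libraries stood above all fibroblast libraries and the telocyte libraries above those of both other fibroblast classes. Against pericytes, fibroblasts were lower by 3.18 on the log2 scale (log2 fold change -3.18 ± 0.17, adjusted p = 9.81e-11). Telocyte-gated cells were higher than other fibroblasts by 1.19 ± 0.22 (adjusted p = 0.00155) and higher than iCAF-gated cells (-1.50 ± 0.25 for iCAF against telocyte, adjusted p = 0.000248). The difference between iCAF-gated cells and other fibroblasts, -0.31 ± 0.23, did not pass the test (adjusted p = 0.580). Both PDGF receptors were thus highest, among fibroblasts, in the telocyte gate.

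*Pdpn* marked every fibroblast class and was nearly absent from pericytes. The fibroblast libraries held 311 to 843 CPM and the pericyte libraries 13.5, 4.62 and 0 CPM, without overlap (log2 fold change 6.77 ± 0.38, adjusted p = 1.71e-10). Within fibroblasts the classes overlapped: 601, 592 and 427 CPM in iCAF-gated cells, 684, 843, 620 and 369 CPM in other fibroblasts, and 463, 448 and 311 CPM in telocyte-gated cells. *Pdpn* was lower in telocyte-gated cells than in other fibroblasts (-0.81 ± 0.21, adjusted p = 0.0177) and than in iCAF-gated cells (0.72 ± 0.23 for iCAF against telocyte, adjusted p = 0.0396), but the latter call held in 6 of 13 alternative settings and the former in 7 of 13. Leaving out mouse 1, 2 or 4 ended both calls and leaving out mouse 5 the latter, with adjusted p of 0.189, 0.109, 0.0680 and 0.0795 for iCAF against telocyte without mice 1, 2, 4 and 5, and of 0.0860, 0.121 and 0.0898 for telocyte against other fibroblasts without mice 1, 2 and 4.

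*Thy1* did not pass the test between fibroblast classes and was highest in pericytes. It was 368, 562 and 314 CPM in iCAF-gated cells, 516, 508, 525 and 288 CPM in other fibroblasts and 381, 387 and 510 CPM in telocyte-gated cells, and no contrast among the 3 passed the test (adjusted p = 0.361, 0.937 and 0.522). In pericyte-gated cells it reached 877, 2062 and 1559 CPM, above every fibroblast library, and fibroblasts were lower than pericytes by 1.51 on the log2 scale (log2 fold change -1.51 ± 0.18, adjusted p = 3.33e-06). At the level of transcripts, *Thy1* was therefore higher in the pericyte libraries of mice 1, 2 and 4 than in any fibroblast library. The other mice gave few pericytes. In mouse 5, 5 pericyte-gated cells held 492 CPM and 7 telocyte-gated cells 542 CPM. The 3 pericyte-gated cells each of mice 3 and 6 held 2497 and 325 CPM, against 343 and 221 CPM in their summed fibroblast-gated cells.

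*Cd34*, a sialomucin, was close to an on-off marker. It measured 923, 691 and 1120 CPM in iCAF-gated cells and 497, 455, 495 and 569 CPM in other fibroblasts, with 10.3, 10.8 and 18 CPM in telocyte-gated cells and 0, 1.54 and 0 CPM in pericyte-gated cells. The 4 classes did not overlap in any mouse. iCAF-gated cells exceeded telocyte-gated cells by 6.21 ± 0.29 on the log2 scale (adjusted p = 2.82e-10), and other fibroblasts exceeded them too (-5.23 ± 0.28 for telocyte against other fibroblast, adjusted p = 6.78e-10). iCAF-gated cells were also above other fibroblasts (0.98 ± 0.19, adjusted p = 0.00432), a call that was lost without mouse 1 (adjusted p = 0.0998) and with clustered cells (0.0900). The pericyte libraries held 1 *Cd34* transcript against 3107 in the fibroblast libraries, a ratio of 498 with a counting interval of 89.3 to 19684. That transcript and most of the pericyte depth came from mouse 2, without which the pericyte libraries held none and the difference was at least 59.5-fold, taking 3 transcripts over the group as the floor.

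*Cd81* ran parallel to *Cd34* within fibroblasts but not in other cells. iCAF-gated cells held 431, 358 and 427 CPM, other fibroblasts 167, 79.7, 215 and 434 CPM and telocyte-gated cells 7.71, 9.28 and 20.5 CPM. The telocyte libraries lay below all others, and the value of mouse 5 put the other fibroblasts into the range of the iCAF gate. The log2 fold change was 5.16 ± 0.43 for iCAF against telocyte (adjusted p = 1.74e-07), -3.83 ± 0.44 for telocyte against other fibroblast (adjusted p = 1.16e-05) and 1.34 ± 0.28 for iCAF against other fibroblast (adjusted p = 0.00882). Without mouse 1, without mouse 2 or without the mouse block the last call was lost (adjusted p = 0.168, 0.167 and 0.180). Pericytes of mice 1, 2 and 4 held 53.9, 61.6 and 117 CPM, in each mouse between its telocytes and other fibroblasts. Across mice, the pericyte and other fibroblast libraries overlapped. By the test, pericytes did not differ from the mean of the fibroblast classes (0.37 ± 0.36, adjusted p = 0.547). The 3, 5 and 3 pericyte-gated cells of mice 3, 5 and 6, outside the test, held 303, 393 and 20.3 CPM. In 49 wells with *Epcam*, *Cd81* was found in 81.6% of the wells without thinning, so that its transcript was not limited to the mesenchymal classes in this sort.

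*Ly6a*, a GPI-anchored stem cell antigen, was high in iCAF-gated cells (1600, 1660 and 2187 CPM) and other fibroblasts (921, 1274, 1157 and 1818 CPM) and lower in telocyte-gated cells (518, 640 and 267 CPM), and pericytes held 60.6, 35.4 and 43.9 CPM. Telocyte libraries lay below those of both other fibroblast classes and above all pericyte libraries. *Ly6a* was higher in iCAF-gated than in telocyte-gated cells by 1.84 ± 0.26 (adjusted p = 4.45e-05) and in fibroblasts than in pericytes by 4.59 ± 0.31 (adjusted p = 2.49e-09), and lower in telocyte-gated cells than in other fibroblasts (-1.35 ± 0.24, adjusted p = 0.00103). The difference between iCAF-gated cells and other fibroblasts, 0.50 ± 0.23, did not pass (adjusted p = 0.288). Where cells were clustered instead of gated, the step moved: iCAF-like and other fibroblast cells then differed by 1.11 (adjusted p = 0.00793) and telocyte-like and other fibroblast cells by -0.57 (adjusted p = 0.249).

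*Ly6c1* lies near *Ly6a* on chromosome 15 (chr15:75044018-75048920 and chr15:74994877-74998031, GRCm38.p6) and encodes a GPI-anchored protein of the same family. It measured 71.7, 81.4 and 104 CPM in iCAF-gated cells and 15.6, 39.9, 54.9 and 53.7 CPM in other fibroblasts. It was 20.6, 21.6 and 12.8 CPM in telocyte-gated cells and 0, 4.62 and 0 CPM in pericyte-gated cells. The iCAF libraries stood above all others, and the other fibroblast and telocyte libraries overlapped. The test was passed for iCAF against telocyte (2.26 ± 0.40, adjusted p = 0.000499) and iCAF against other fibroblast (1.34 ± 0.31, adjusted p = 0.0168), the latter not without mouse 1 (adjusted p = 0.261), without mouse 2 (0.101) or with DESeq2 (0.0723). Telocyte-gated cells and other fibroblasts did not differ by the test (-0.92 ± 0.40, adjusted p = 0.215). Against 3 transcripts in the pericyte libraries, the fibroblast libraries held 289, a ratio of 15.4 with a counting interval of 5.23 to 75.3 (log2 fold change 3.63 ± 0.62, adjusted p = 0.000201). Without mouse 2, which gave all 3, it was at least 4.98-fold. *Ly6c1* has a near-identical neighbor, *Ly6c2*, with 36 transcripts in iCAF-gated cells against 205 of *Ly6c1*, and reads of this pair may have been divided between them.

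*Pi16*, a secreted or membrane-anchored peptidase inhibitor, was found almost solely in iCAF-gated and other fibroblasts among the mesenchymal classes. Its level was 213, 105 and 310 CPM in iCAF-gated cells, 3.12, 24.1, 29.9 and 285 CPM in other fibroblasts, 0, 1.55 and 0 CPM in telocyte-gated cells and 0, 1.54 and 0 CPM in pericyte-gated cells. In the other fibroblasts the value of mouse 5 stood apart, and 51.3 of its 74.3 transcripts came from a single cell. The iCAF libraries held 466 transcripts against 1 in the telocyte libraries, a ratio of 299 with a counting interval of 53.4 to 11825 (edgeR adjusted p = 0.000191). Without mouse 2, which gave that transcript, iCAF-gated cells were at least 64.2-fold and other fibroblasts at least 19.3-fold above telocytes. iCAF-gated cells also exceeded other fibroblasts (1.99 ± 0.50, adjusted p = 0.0275), a call lost without mouse 1 (adjusted p = 0.257), without mouse 2 (0.228), without the mouse block (0.298) and with DESeq2 (0.362). Other fibroblasts exceeded telocytes with 108 transcripts against 1, a ratio of 70.6 with a counting interval of 12.4 to 2813 (adjusted p = 0.0268). Mouse 5 gave most of them, and without it the ratio was 25.2, from 34 transcripts, with a counting interval of 4.23 to 1026. The call was lost without mouse 2 (adjusted p = 0.126), without mouse 4 (0.0771), with DESeq2 (0.0507) and where any transcript of *Ptprc* or *Epcam* excluded a cell (0.0743). Against pericytes, the mean over the fibroblast classes, which includes the telocytes, did not pass (adjusted p = 0.346), but did with no filter on low genes (adjusted p = 0.0272).

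*Dpp4*, a dipeptidyl peptidase, was too rare for the filter on low genes. Fibroblast-gated cells held 71.0 transcripts in all, of which mouse 5 gave 45 in iCAF-gated and 13.0 in other fibroblasts, mouse 1 gave 12 and 1, and the other 4 mice none. None were found in telocyte or pericyte libraries, so that iCAF-gated cells exceeded telocytes at least 12.2-fold and pericytes at least 7.99-fold, with the same floor. Mouse 5, which gave 45 of the 57 iCAF transcripts, had no telocyte or pericyte library, and without it 12 transcripts remained and the bounds were 3.49-fold and 2.29-fold. Without mouse 2, which held most of the pericyte depth and no *Dpp4*, the bound against pericytes was 3.32-fold. *Dpp4* was seen in 16 of 125 fibroblast-gated cells with a *Pi16* transcript (12.8%) and in 11 of 373 without one (2.95%), at median depths of 12136 and 12272 transcripts. All of these cells with *Dpp4* came from mice 1 and 5, whereas the 125 and 373 cells were pooled over all mice. Mouse 5 had the highest share of fibroblast-gated cells with each gene, 36.8% for *Pi16* and 19.8% for *Dpp4*. The pooled shares therefore mix differences between mice with those between cells, and whether the genes go together within a mouse was not tested.

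Set against the background of all 8646 genes tested, the members changed often between classes. They are common fibroblast markers, chosen with earlier results of these data known, so that this comparison is a description and not a test. Of 9 members tested, 6 were higher and 2 lower in iCAF-gated than in telocyte-gated cells, where 8.94% of all genes were higher and 7.26% lower, and the median log2 fold change was 1.84 over the members and -0.03 over all genes. Against other fibroblasts, iCAF-gated cells were higher in 4 members and lower in none (2.21% and 2.49% of all genes), and telocyte-gated cells were higher in 2 and lower in 5 (3.38% and 4.64%). Fibroblasts exceeded pericytes in 5 members and were lower in 2 (10.7% and 10.5%). The 4 calls between iCAF-gated and other fibroblasts were the least stable: with DESeq2, or without the mouse block, 2 were left, without mouse 1 none and without mouse 2 only *Cd34*.

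**Figure D2:**
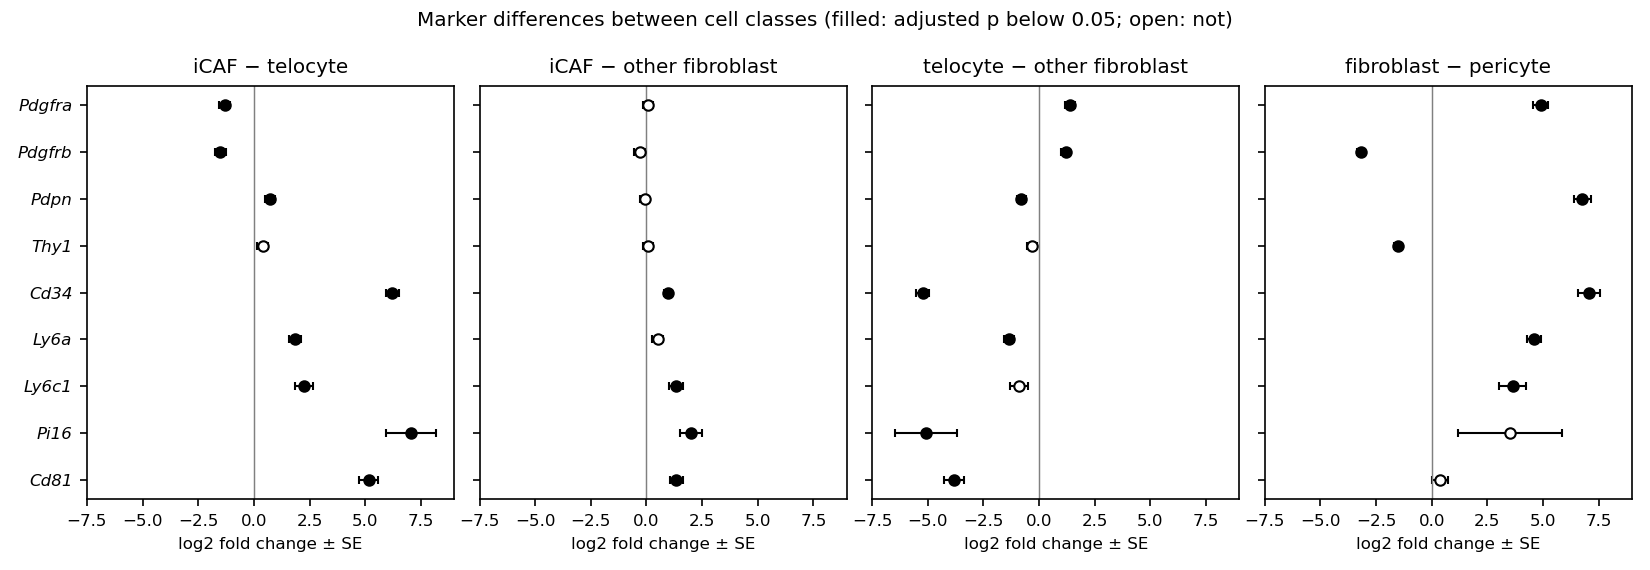
log2 fold change ± SE (x axis) of the 9 tested genes in 4 contrasts between cell classes, from edgeR on 13 libraries with the mouse as a block; filled points have an adjusted p below 0.05. In the panel of iCAF against telocyte, *Cd34*, *Cd81* and *Pi16* lie furthest to the right and both PDGF receptors to the left, and in the panel of fibroblast against pericyte only *Pdgfrb* and *Thy1* lie to the left.

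The promoters of 7 of the 10 genes were found in the RefSeq table (GRCm38.p6, 250 bases before to 50 after a start site). ZEB1 is known to bind E-boxes (CAGGTG, or CACCTG on the other strand), which lie in 20.2% of all 32851 promoters of this length and in 1 of the 7 members, *Pdpn*. A TATA motif (TATAAA or TTTATA) lies in 13.6% of all promoters and 3 of the 7, and a GC box (GGGCGG or CCGCCC) in 35.7% and 2 of the 7. The promoters of *Cd34* and *Cd81*, which were both lower in telocytes than in other fibroblasts, and of *Pdpn* are shown with these motifs in capitals. They lie at chr1:194938571-194938870 (plus strand), chr7:143052500-143052799 (plus strand) and chr4:143299515-143299814 (minus strand). The *Cd34* window holds none of the 3 motifs, that of *Cd81* a TATA motif and 3 GC boxes, and that of *Pdpn* the E-box and 2 GC boxes, so that the pair with parallel levels shares none of these letters.
Cd34: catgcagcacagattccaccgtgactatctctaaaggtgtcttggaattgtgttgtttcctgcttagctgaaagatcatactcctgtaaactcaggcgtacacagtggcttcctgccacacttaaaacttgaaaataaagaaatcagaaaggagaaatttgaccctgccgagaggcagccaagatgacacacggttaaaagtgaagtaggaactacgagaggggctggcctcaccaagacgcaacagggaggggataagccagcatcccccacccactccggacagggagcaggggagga
Cd81: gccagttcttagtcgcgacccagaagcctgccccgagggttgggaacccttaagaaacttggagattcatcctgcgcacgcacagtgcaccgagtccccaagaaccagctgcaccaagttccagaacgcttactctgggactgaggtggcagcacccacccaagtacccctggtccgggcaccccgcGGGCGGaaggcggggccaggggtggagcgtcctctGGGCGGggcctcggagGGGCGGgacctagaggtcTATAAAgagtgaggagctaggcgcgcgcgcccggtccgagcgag
Pdpn: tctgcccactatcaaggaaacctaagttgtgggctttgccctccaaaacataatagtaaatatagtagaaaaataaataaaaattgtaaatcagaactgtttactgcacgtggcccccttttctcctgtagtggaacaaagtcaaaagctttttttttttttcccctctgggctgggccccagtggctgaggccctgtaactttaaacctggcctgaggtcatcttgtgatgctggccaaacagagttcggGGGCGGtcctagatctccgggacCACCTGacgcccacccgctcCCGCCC

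Sorting depends on what is seen in the single cell, where detection rises with depth. Each cell was therefore thinned to 2000 barcodes, which left out 13 of 223 fibroblast-gated FibCtrl and 7 of 275 FibΔZeb1 cells for being shallower, and shares are given with exact Clopper-Pearson 95% intervals over cells, which cover counting error only. Neutrophil-gated wells served as the class that should lack these genes. Here they are all 451 such wells that passed the filter, with or without *Ptprc* or *Epcam*, and not only the 208 among the CAFs. They had a median of 1390 transcripts, and 309 of 451 were too shallow to be thinned.

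**Figure D3:**
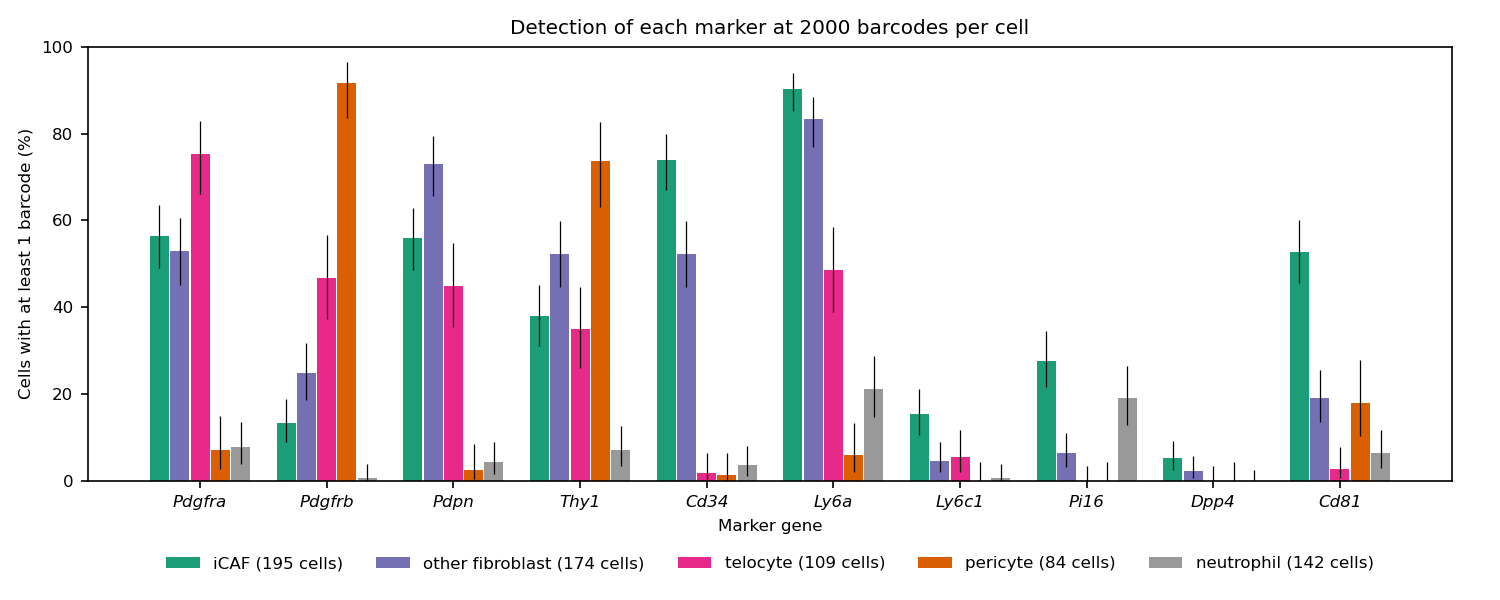
Share of cells (y axis, percent) with at least 1 barcode of each gene after thinning to 2000 barcodes per cell, for 4 mesenchymal classes and neutrophil-gated wells; bars are pooled over mice and lines are 95% binomial intervals. *Pdgfrb* reaches 91.7% in pericytes, *Cd34* 73.8% in iCAF-gated cells and 1.83% in telocytes, and *Pi16* is seen in 19.0% of neutrophil-gated wells.

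*Pdgfra* was found in 56.4% (49.1 to 63.5) of iCAF-gated cells, 52.9% (45.2 to 60.5) of other fibroblasts and 75.2% (66 to 83) of telocyte-gated cells. It was also found in 7.14% (2.67 to 14.9) of pericytes and 7.75% (3.93 to 13.4) of neutrophil-gated wells. Unthinned, these 2 shares were 19.5% and 7.10%, at median depths of 11141 and 1390 transcripts. With depths so unlike, these wells cannot show whether *Pdgfra* in pericytes is background. *Pdgfrb* was found in 91.7% (83.6 to 96.6) of pericytes against 46.8% of telocyte-gated cells, 24.7% of other fibroblasts, 13.3% of iCAF-gated cells and 0.704% of neutrophil-gated wells. *Cd34* was present in 73.8% (67.1 to 79.9) of iCAF-gated cells and 52.3% (44.6 to 59.9) of other fibroblasts. At this depth it was seen in 1.83% of telocyte-gated cells, 1.19% of pericytes and 3.52% of neutrophil-gated wells, alike within their intervals. The likeness did not hold without thinning, where *Cd34* was in 12.5% (7.01 to 20.1) of telocyte-gated cells. The unthinned shares were 1.15% (0.03 to 6.24) in pericytes and 2.22% (1.07 to 4.04) in the shallower neutrophil-gated wells. *Ly6a* was the most widely detected marker of the fibroblast gate, in 90.3% of iCAF-gated cells, 83.3% of other fibroblasts and 48.6% of telocyte-gated cells, but also in 43.8% of wells with *Epcam* and 21.1% of neutrophil-gated wells. Without thinning, these shares were higher in the fibroblast classes, such as 91.5%, 90.9% and 96.4% for *Pdgfra*.

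*Pi16* was found in 62 of 451 neutrophil-gated wells without thinning, and *Ly6a* in 92. After thinning, *Pi16* was in 19.0% of neutrophil-gated wells, against 27.7% of iCAF-gated cells and 6.32% of other fibroblasts. In neutrophil-gated wells it measured 112.2, 113.9 and 101.3 CPM in FibCtrl mice 1, 3 and 4. In those of FibΔZeb1 mice 2, 5 and 6 it measured 125, 112 and 73.2 CPM. These levels exceeded the other fibroblast libraries of mice 1, 2 and 4 (3.12, 24.1 and 29.9 CPM). They did not exceed that of mouse 5 (285 CPM). The neutrophil-gated wells held 78 transcripts of *Pi16* and 10 of *Cd34*, and the fibroblast-gated cells 727 of *Pi16* and 3387 of *Cd34*. In pericyte-gated and ungated CAF wells of the same plates, *Pi16* had 1 transcript each. The source of the *Pi16* transcripts in neutrophil-gated wells was not tested.

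Most marker pairs were detected together in fibroblast-gated cells about as often as the product of their single shares. *Pdgfra* and *Pdgfrb* were found together in 15.1% (11.98 to 18.6) of 478 thinned cells with a product of 14.9%. By class, the pair was seen in 36.7% of telocyte-gated cells, 10.9% of other fibroblasts and 6.67% of iCAF-gated cells. Over mice, the share was 16.9% ± 7.50 (SD, n = 6). *Pdgfra* and *Pdpn* were found together in 33.7% (product 35.4%), and either of them in 85.4% of fibroblast-gated cells.

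In percentage points, the pairs that exceeded the product most joined *Cd34* with other members that were higher in iCAF-gated than in telocyte-gated cells. *Cd34* and *Cd81* were seen together in 21.5% (17.9 to 25.5; product 14.4%), *Cd34* and *Pi16* in 11.5% (8.79 to 14.7; product 6.74%) and *Cd34* and *Ly6a* in 43.5% (39.0 to 48.1; product 38.8%). Of cells with *Pi16*, 84.6% also had *Cd34* and 93.8% *Ly6a*. Within the iCAF gate alone, *Cd34* and *Cd81* were seen together in 41.5% with a product of 39.0%, and *Cd34* and *Ly6a* in 66.7% with a product of 66.7%, while *Cd34* and *Pi16* were seen together in 24.1% with a product of 20.4%. In the other fibroblasts the last pair was seen in 4.60% with a product of 3.31%. *Cd34* with *Ly6a* was seen in 0 of 109 thinned telocyte-gated cells, which by the exact interval allows up to 3.33% to show both at this depth. This limits detection and not expression, and 11 of 112 cells had both without thinning. In the opposite direction, *Pdgfrb* and *Cd34* were seen together in 7.95% with a product of 12.4%. Over mice, *Cd34* with *Ly6a* was seen in 40.8% ± 13.5 (SD, n = 6) of fibroblast-gated cells.

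As a guide for sorting, combinations of transcripts were applied to all thinned wells that passed the filter, immune and epithelial wells included. At least 1 of the 10 genes was found in 99.0% of fibroblast-gated cells and 98.8% of pericytes, but also in 56.3% of neutrophil-gated wells. *Pdgfra* or *Pdpn* was found in 82.1% of iCAF-gated cells, 87.9% of other fibroblasts and 87.2% of telocyte-gated cells against 9.52% of pericytes, and 89.3% of the 457 wells selected were fibroblast-gated. *Cd34* with *Ly6a* selected 211 wells, 98.6% of them fibroblast-gated, with 61.6% from the iCAF gate, 37.0% from the other fibroblasts and none from the telocyte gate. Of the 93 wells with *Pi16*, 69.9% were fibroblast-gated and 29.0% neutrophil-gated.

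*Pdgfra* without *Cd34* and *Cd81* selected 71.6% of telocyte-gated cells, 21.3% of other fibroblasts and 8.72% of iCAF-gated cells, and 51.3% of the 152 wells selected were telocyte-gated. *Pdgfrb* without *Pdgfra* and *Pdpn* selected 83.3% of pericytes against 4.81% of fibroblast-gated cells, and 70.7% of its 99 wells were pericytes. Adding *Thy1* raised that share to 80% of 65 wells while 61.9% of pericytes were kept. *Thy1* alone was seen in 73.8% of pericytes and 42.5% of fibroblast-gated cells, so that 20.8% of the wells with *Thy1* were pericytes. At this depth a cell without a transcript can still carry the gene, and the values describe transcripts and not the antibody signal of a sort.

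**Figure D4:**
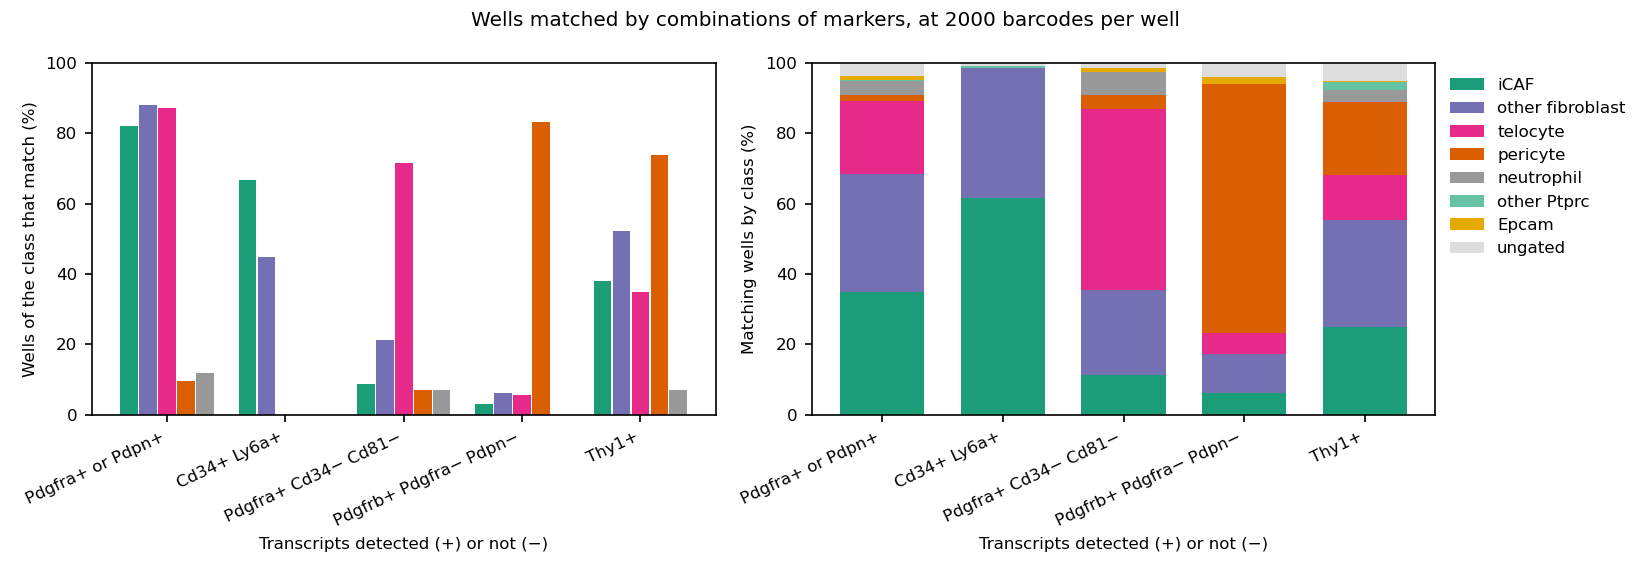
Wells matched by 5 combinations of transcripts at 2000 barcodes per well; left, the share of each class that matches (y axis, percent), and right, the classes of the matching wells (percent of 457, 211, 152, 99 and 298 wells). *Cd34* with *Ly6a* matches iCAF-gated and other fibroblasts almost alone, *Pdgfra* without *Cd34* and *Cd81* matches 71.6% of telocytes, and *Pdgfrb* without *Pdgfra* and *Pdpn* matches 83.3% of pericytes.

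Related genes were counted from lists chosen beside the members. Of the PDGF ligands only *Pdgfa* was tested, and it was lower in fibroblasts than in pericytes (log2 fold change -4.26 ± 0.29, adjusted p = 2.43e-09), with 462 ± 202 CPM (SD, n = 3) in pericytes and 10.8 to 33.6 CPM as class means in fibroblasts. Of 6 tested tetraspanins other than *Cd81*, *Cd82* alone was lower in iCAF-gated than in telocyte-gated cells (-2.86 ± 0.51, adjusted p = 0.000471) and than in other fibroblasts (-1.76 ± 0.49, adjusted p = 0.0443), none changed between telocytes and other fibroblasts, and against pericytes *Cd63* was higher (0.85 ± 0.18) and *Cd151* lower (-0.66 ± 0.18). Of the other Ly6 genes only *Ly6e* was tested. It was higher in fibroblasts than in pericytes (2.04 ± 0.20, adjusted p = 2.17e-07) and changed in no contrast among fibroblasts.

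Of 17 tested fibroblast surface or adventitial genes, 8 were higher and 4 lower in iCAF-gated than in telocyte-gated cells, with a median of 0.83. Among them *Cd55*, the complement decay-accelerating factor, rose by 5.02 ± 0.51 (adjusted p = 1.23e-06) and *Pcolce2*, a procollagen C-proteinase enhancer, held 562 transcripts against 2, a ratio of 180 with a counting interval of 49.6 to 1491. *Efhd1* was at least 14.96-fold higher, or 6.68-fold without mouse 5. Against other fibroblasts, 4 were higher and 1 lower in iCAF-gated cells, with *Pcolce2* (3.25 ± 0.27), *Efhd1* (2.76 ± 0.68) and *Fap* (1.79 ± 0.44) named by size. Telocyte-gated cells were higher than other fibroblasts in 2 and lower in 5, with *Procr*, the protein C receptor, higher by 3.48 ± 0.26 (adjusted p = 7.92e-08) and *Cd55* lower (-4.62 ± 0.49, adjusted p = 4.85e-06). *Pcolce2* was lower there as well, with 2 transcripts against 51. Against pericytes, 7 were higher and 6 lower. *Cd55* had 3185 transcripts against 3, a ratio of 170 with a counting interval of 58.2 to 826, and *Pcolce2* was at least 32.9-fold and *Itga11* at least 8.07-fold higher, or 13.96-fold and 3.22-fold without mouse 2.

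The genes with levels most like those of each member over the 13 libraries were named by Pearson correlation of log2(CPM + 1), as a description, since these libraries share mice and classes. *Pdgfra* was most like *Fgf7* (r = 0.956), *Mmp2* and *St3gal1*, and *Pdgfrb* most like the smooth muscle myosin gene *Myh11* (r = 0.974), *Arhgef17* and *Mfge8*. *Pdpn* was most like *Sema3c* (r = 0.987), *Abi3bp* and *Fgf7*, and *Thy1* most like *Cox6a1* (r = 0.945), *Myo1c* and *Rap2a*. *Cd34* was most like *Lgi4* (r = 0.985), *Clec3b* and *Sfrp2*, and *Ly6a* most like *Steap3* (r = 0.978), *Ccdc80* and *Maob*. For *Ly6c1* they were *Igfbp6* (r = 0.971), *Mcc* and *S100a16*, for *Pi16* *Chst12* (r = 0.948), *Gfpt2* and *Pcolce2*, for *Dpp4* *Arl4d* (r = 0.948), *Penk* and *Angptl1*, and for *Cd81* *Arf6* (r = 0.968), *Slc1a5* and *Ddah2*. *Mmp2*, *Clec3b* and *Myh11* stand on the fibroblast, iCAF and smooth muscle lists used here to sort cells into classes.

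The genotypes were compared over 3 mice each, with all cells of a mouse summed, so that fewer cells of a type and less RNA per cell cannot be told apart. FibΔZeb1 mouse 6 came from another sequencing run than the other 5. *Zeb1* itself measured 113.7, 114.3 and 98.1 CPM in fibroblast-gated cells of FibCtrl mice 1, 3 and 4 and 59.6, 71.9 and 66.7 CPM in those of FibΔZeb1 mice 2, 5 and 6. The genotypes did not overlap (exact two-sided permutation test, p = 0.10, the smallest p that 3 against 3 mice allow), and *Zeb1* did not pass in edgeR, where no gene did. The 3′ end that is counted may lie outside the deleted part of the gene, so that these levels check the labels only in part.

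No member differed between genotypes by the test. Of 9 members tested in fibroblast-gated cells none passed, and in edgeR 0 of all 8316 genes did (0%), with 132 genes at an unadjusted p under 0.05 and 1 gene called by DESeq2. In all CAFs it was 0 of 9747 (0%), with 106 at an unadjusted p under 0.05 and 0 called by DESeq2. The mice of the genotypes did not overlap for 6.57% of all genes in fibroblast-gated cells and for 5.82% in all CAFs, but overlapped for every member in both. On simulated counts with the real depths, 20% of genes changed 2-fold and 89% of genes changed 4-fold were recovered in this comparison, so that a 2-fold change of a member could have been missed. The simulated spread followed the trend over all genes and not that of each member. The SE of the members reached 0.73 (*Pi16*), so that a larger change of such a member could have been missed as well.

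For each of the 10 members, the difference between the genotype means was smaller than the SD over the mice of at least 1 genotype. *Pdgfra* was 603, 832 and 1269 CPM in FibCtrl mice 1, 3 and 4 and 604, 662 and 925 CPM in FibΔZeb1 mice 2, 5 and 6 (log2 fold change -0.27 ± 0.28). *Cd34* was 621, 420 and 284 CPM in FibCtrl and 391, 853 and 435 CPM in FibΔZeb1 mice (0.36 ± 0.42). The highest *Pdgfra* and lowest *Cd34* were both in mouse 4, in which telocyte-gated cells made up 32 of 50 fibroblast-gated cells, the *Pi16* level of mouse 4 rests on a single cell with 110 of its 130.5 transcripts, and the highest *Cd34*, *Ly6a*, *Pi16* and *Cd81* were in mouse 5, with 69 of 106 in the iCAF gate. The part of this class makeup in the levels was not tested. *Cd81* was 270, 203 and 131 CPM in FibCtrl and 131, 393 and 200 CPM in FibΔZeb1 mice (0.28 ± 0.46), and *Ly6a* 1187, 1499 and 781 CPM against 1195, 1917 and 786 CPM (0.21 ± 0.39). The log2 fold changes of the other 5 members lay between -0.23 ± 0.31 (*Thy1*) and 0.03 ± 0.60 (*Ly6c1*), and in exact permutation tests of the levels over mice all 10 members had p between 0.40 and 1.

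**Figure D5:**
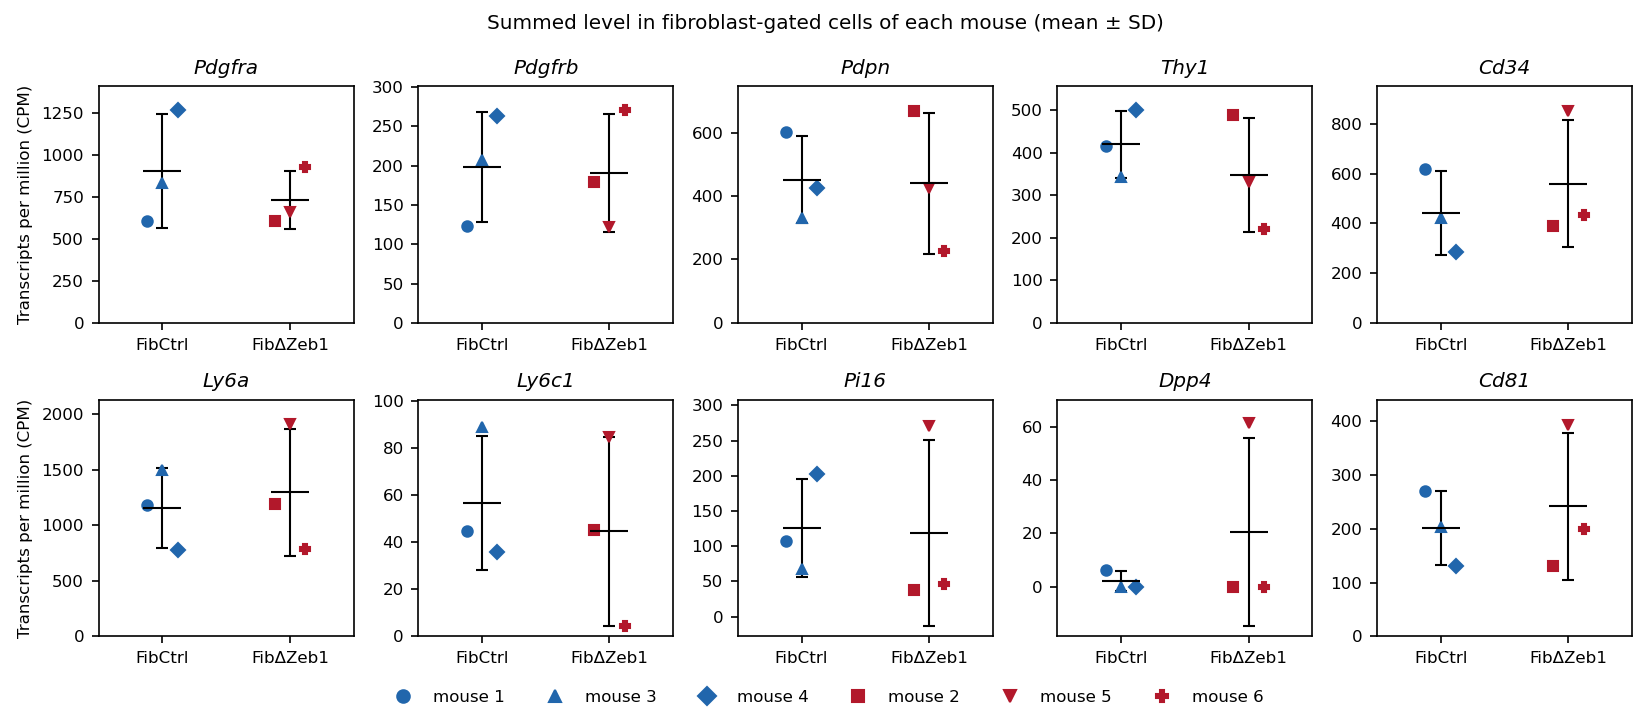
Level of each gene (y axis, CPM of all summed fibroblast-gated cells of a mouse, linear scale that differs between panels) in 3 FibCtrl and 3 FibΔZeb1 mice; symbols are mice, and lines give mean ± SD. The genotypes overlap for each of the 10 genes, and mouse 5 alone sets the mean of *Dpp4* in FibΔZeb1 mice, with 61.3 CPM.

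In the 87 pericyte-gated cells, *Pdgfrb* measured 1662 ± 315 CPM (SD, n = 3) in FibCtrl and 1122 ± 153 CPM (n = 3) in FibΔZeb1 mice without overlap (exact permutation test, p = 0.10, the smallest that 3 against 3 allow). Of the 9 members with a transcript in this class, only this 1 had genotypes that did not overlap, as did 5.88% of the 13093 genes with a transcript there. These genes include rare ones, such as *Cd34* and *Ly6c1*, seen there in mouse 2 alone, which could not separate the genotypes. The share is therefore not a like background for *Pdgfrb*. Mice 3, 5 and 6 gave 3, 5 and 3 of these cells, and no test across genes was run on this class.

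Thinned shares were compared over mice as well. *Pdgfra* was found in 60.0% ± 14.1 (SD, n = 3) of fibroblast-gated cells in FibCtrl and 60.1% ± 3.70 in FibΔZeb1 mice, and *Cd34* in 40.4% ± 15.1 and 52.8% ± 13.6, with exact permutation p of 1 and 0.50. Whether the contrast of iCAF-gated and telocyte-gated cells itself differed between genotypes was tested in the 4 mice with at least 5 cells of both classes, a test added after the data had been seen. It called 0 of 6325 genes in edgeR, with 149 at an unadjusted p under 0.05, of which *Cd81* was the only member (log2 difference -2.44 ± 1.11, unadjusted p = 0.0491, adjusted p = 1). In the telocyte-gated cells of mouse 5, all 8.01 *Cd81* transcripts came from 1 of 7 cells, and the 7 cells of mouse 3 held none.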

How the data were processed

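Whole barcode counts and estimated counts of transcripts per gene and well were deposited by the authors, who had aligned 3′ reads with BWA to the mouse transcriptome (GRCm38, Ensembl) and counted distinct UMIs per well; the estimated counts correct for molecules that share a barcode, and neither was normalized. They were used as whole-rounded sums in tests. The members and all gene lists were chosen with earlier results of these data known, and the gate thresholds were set after looking at the marker distributions.

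Wells had to hold 100 to 6000 genes and under 10% of counts on chrM genes. A well was not counted as a CAF where *Ptprc* or *Epcam* exceeded 1 transcript. Plates held 1575726 to 3699058 transcripts, and 7.85% to 18.6% of the counts were spike-ins, which stayed out of the library sizes. Wells of all plates carry the same set of well barcodes, and doublets were not called, since wells were sorted singly. Fibroblast-gated cells needed at least 100 transcripts per 10000 of 10 fibroblast genes with 5 detected, and pericyte-gated cells at least 20 per 10000 of their list. Telocyte and iCAF cells were set apart by the log2 difference of their lists, at -0.5 or above and -2 or below. As 1 alternative, cells were clustered (scanpy 1.11.5, leidenalg 0.10.2).

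Differential tests used the edgeR 4.0.16 quasi-likelihood test (R 4.3.3) with TMM scaling, filtering by expression and Benjamini-Hochberg adjustment over all genes tested at a threshold of 0.05. Classes were compared with the mouse as a block, since they come from the same plates, and genotypes over the 6 mice with no covariate. Class contrasts used classes with at least 10 cells in a mouse, the interaction with genotype those with at least 5, and genotype values all cells of a mouse. Ratios from few transcripts were also computed without each mouse in turn, an alternative added after the data had been seen. DESeq2 1.42.0 was an alternative. Exact permutation tests over mice were two-sided. In tests on simulated data, 20% of 2-fold and 89% of 4-fold changes were recovered in the genotype comparison (8316 genes), and 34% and 93% in iCAF against telocyte (8646 genes). Beside the members, the text names the 3 genes most correlated with each, and from each further list at most 3 genes with the largest change past the threshold. The mice of a group are separate animals.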

Additional observations from a re-analysis of the deposited data

Results flagged for a closer look

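Among the 10 members in the other fibroblast libraries of 4 mice, mouse 5 stood apart in 3 by Dixon's 95% critical value for 4 samples, which chance passes in about 1 of 20 groups. *Thy1* was 288 CPM in mouse 5 against 508 to 525 CPM in the other mice (gap over range 0.928). *Pi16* was 285 CPM against 3.12 to 29.9 CPM (0.905), and *Dpp4* 49.9 CPM against 0 to 1.56 CPM (0.969). In mouse 5, 1 cell held 51.3 of the 74.3 *Pi16* transcripts, and 5 of its 30 other fibroblasts held *Dpp4*.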

How the results depend on the processing

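Of the values that answer a comparison, recomputed under the alternatives, 235 stayed the same and 23 moved. Small changes of a count were taken as the same, and the 235 include counts of 0 between genotypes that stayed 0. Of the other values, such as fold changes of single members, 598 stayed the same, 30 lost their call, 2 gained one, 15 moved and 30 turned sign. Mice 3 and 6 gave no class library, so that leaving them out could not change a class contrast and was not counted there. With DESeq2, 1 gene was called between genotypes in fibroblast-gated cells, and 263 between iCAF-gated and other fibroblasts, 2 of them members. In that contrast 679 genes were called with no filter on low genes and 621 with clustered cells. Without the replicate block by mouse, 194 were called, 2 of them members, and among the other contrasts the block changed the call of *Pdpn*, with 5 members then higher in iCAF than in telocytes and 4 lower in telocytes than in other fibroblasts. No paired analysis was run, since the labels do not say which mice of the 2 genotypes would belong together. With clustered cells, 3 members were lower in telocytes than in other fibroblasts.

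Leaving out mouse 1, 2, 4 or 5 gave 656 to 1403 genes for iCAF against telocyte (656 without mouse 1), 112 to 451 for iCAF against other fibroblast, with 0 to 4 members higher (112 and 0 without mouse 1, 167 and 1 without mouse 2), 324 to 698 for telocyte against other fibroblast (324 without mouse 1), with 3 to 5 members lower (3 without mouse 2 or mouse 4), and 1090 to 1939 for fibroblast against pericyte (1090 without mouse 2). These fits held 9 to 11 of the 13 libraries.

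Thinning to 1000 barcodes gave 94.2% of fibroblast-gated cells with at least 1 member, 7.45% with both PDGF receptors and 19.6% with *Cd34* and *Ly6a* as means over mice, and no thinning gave 71.7% and 61.8% for the pairs.

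All values that turned sign were short of the threshold. Between genotypes, leaving out 1 mouse gave log2 fold changes of -0.14 to 0.77 for *Cd34*, -0.37 to 0.64 for *Cd81*, -0.23 to 0.49 for *Ly6a*, -0.63 to 0.37 for *Ly6c1*, -0.46 to 0.0030 for *Pdgfra*, -0.31 to 0.18 for *Pdgfrb*, -0.42 to 0.31 for *Pdpn*, -1.66 to 0.48 for *Pi16* and -0.54 to 0.014 for *Thy1*. *Ly6c1* was -0.14 with DESeq2 and -0.00092 on barcode counts, *Pdpn* 0.029 with only mt- genes as mitochondrial and 0.012 where any *Ptprc* or *Epcam* excluded a cell, and *Pi16* -0.057 in the latter. Between iCAF and other fibroblasts, *Pdgfra* ranged from -0.064 to 0.22 and *Pdpn* from -0.25 to 0.080 without 1 mouse, and *Thy1* was -0.075 with only mt- genes, -0.19 with clustered cells, -0.0085 with no replicate block and -0.048 with a minimum of 5 cells. At that minimum, *Thy1* was -0.048 for iCAF against telocyte and 0.00021 for telocyte against other fibroblast. *Cd81* was -0.25 for fibroblast against pericyte with only mt- genes. The cause was not tested.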

Other observations

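In the 13 wells with *Ptprc* outside the neutrophil gate, *Thy1* was found in 84.6% without thinning (Clopper-Pearson 95% interval 54.6 to 98.1).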
